A study of Homo sapiens with 23 samples.

Results

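The sites described here are replication start sites that every HCT116 nascent-strand library shared and that no K562 nascent-strand library held. They were chosen by measured values: a region of the SIRT1-depleted list was kept when it shared at least 1 bp with a region of each of the other 3 HCT116 nascent-strand lists and none with the 3 K562 nascent-strand lists. Of the 109990 regions of the depleted list on chromosomes 1 to 22 and X, 34785 were common to all 4 HCT116 lists, and 14008 of these were absent from K562 (the HCT116-only sites). They made up 40.3% of the common sites and 12.7% of the depleted list. A further 5961 common sites lay in 1 K562 list, 5112 in 2 and 9704 in all 3. The 9704 sites are called both-lines sites below and are the set against which the HCT116-only sites were compared.

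Human chromosomes replicate from many origins, of which each cell uses only some, and cell types differ in the set they use. At a fired origin the first DNA made is a short nascent strand with an RNA primer at its 5′ end, which protects it from λ-exonuclease, so sequencing of the resistant strands marks start sites. MCM2 is a subunit of the helicase that is loaded at potential origins in G1 and unwinds DNA in S phase, and its phosphorylation accompanies activation. SIRT1 is a deacetylase that depends on NAD, and acetylated lysine 16 of histone H4 (H4K16ac), a mark of open chromatin, is one of its substrates.

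HCT116 is an established colon carcinoma line and K562 an established chronic myelogenous leukemia line. The 4 HCT116 nascent-strand lists came from a clone depleted of SIRT1, from a clone of depleted cells rescued with the T530A mutant of SIRT1, which cannot be phosphorylated at that residue, from wild-type cells given 200 nM aphidicolin (an inhibitor of replicative polymerases) for 24 h and then grown without it for 24 h, and from a clone of depleted cells rescued with wild-type SIRT1. Each of the 3 altered lines was thus a single clone, and nascent strands of untreated wild-type HCT116 cells were not analysed here. The K562 nascent strands came from early, middle and late S fractions. ChIP regions were from unsynchronised wild-type HCT116 cells, for SIRT1 phosphorylated at T530 (pSIRT1), MCM2 phosphorylated at S139 (pMCM2) and H4K16ac, and from K562 fractions of G1, of the early, middle and late parts of S phase and of G2, for pSIRT1 and pMCM2. Unfractionated K562 cells gave 1 more pSIRT1 list. All 23 samples were groups of 1 library, so no p-value is given, and a difference between lists cannot be told apart from a difference between libraries.

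Depth was known only as the values inside the listed regions. The HCT116 nascent-strand regions held 20014274 reads in the depleted list, 15545568 in the T530A rescue, 13701955 after aphidicolin and 14970644 in the wild-type rescue, and the K562 nascent-strand regions held 5870637 to 6810838 reads. The K562 nascent-strand lists had 67803 to 81959 regions, against 74479 to 109990 in the HCT116 lists. A site absent from K562 is therefore one without a listed region there, and starts below the limit of those lists were not detectable at this depth.

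The HCT116-only sites were wider than other start sites and held more reads. Their median width was 4200 bp (quartiles 2400 and 7200 bp), against 3600 bp (2000 and 5800 bp) in both-lines sites and 2400 bp in the whole depleted list. Sites in 1 or 2 K562 lists both had a median of 3800 bp. The widest HCT116-only site spanned 115000 bp. In all, HCT116-only sites covered 79.8 Mb and held 4403213 reads of the depleted list, and both-lines sites covered 45.9 Mb and held 2575034.

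The order of read numbers was the same in all 4 HCT116 libraries. In the depleted list the median HCT116-only site held 203 reads, against 173 in both-lines sites. In the T530A rescue the regions at these sites held 223 reads, against 189 at both-lines sites. After aphidicolin the medians were 200 and 175 reads, and in the wild-type rescue 269 and 211 reads. The difference lay in width, since per kb of region, HCT116-only sites held a median of 49.7 reads against 47.5 at both-lines sites in the depleted list, 44.8 against 47.4 in the T530A rescue, 43.5 against 45.1 after aphidicolin, and 40.1 against 41.7 in the wild-type rescue. The reads per kb were thus slightly higher at HCT116-only sites in the depleted list and slightly lower in the other 3 lists, and as means in the depleted list they were 55.2 and 56.1, lower at HCT116-only sites. These widths and reads come from the lists that chose the sites and are given as a description.

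**Figure D1:**
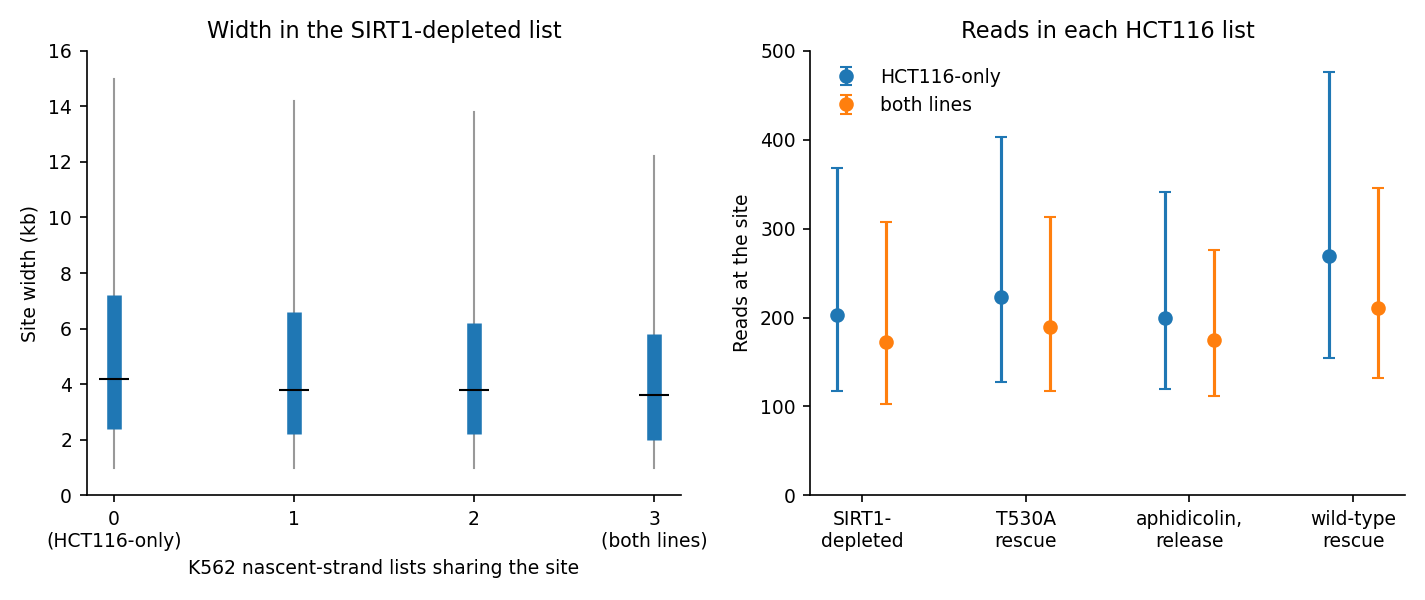
Left, width in kb of common start sites by the number of K562 nascent-strand lists that share them, with the median (line), the quartiles (bar) and the 5th to 95th percentiles (thin line). Right, reads at HCT116-only and both-lines sites in each HCT116 list, as medians with quartiles. The median width was 4.2 kb at HCT116-only sites and 3.6 kb at both-lines sites, and the median reads were higher at HCT116-only sites in all 4 lists.

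The regions of the 4 HCT116 libraries mostly met on the same bases. Of the HCT116-only sites, 13466 (96.1%) had bases that lay in a region of all 4 lists at once, with a median shared length of 2000 bp and a median of 54.5% of the site's width. Among both-lines sites 98.5% had such bases, with a median of 1800 bp and 63.4% of the width. Across the 14008 sites, Spearman's rho of the reads between pairs of HCT116 lists was 0.48 to 0.63, lowest between aphidicolin and depleted cells and highest between both rescues. Width, mappability and copy number are shared by the 4 lists, so these correlations are a description.

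The distance to the nearest K562 start site varied widely. It is given for HCT116-only sites alone, without a background, and is a description. The median gap from an HCT116-only site to a K562 nascent-strand region was 8.4 kb (quartiles 3 and 20.4 kb), 1409 sites (10.1%) lay within 1 kb, and 82 touched a K562 region without sharing a base. On the other side 6291 sites (44.9%) were more than 10 kb away and 363 (2.59%) more than 100 kb. The 193 sites just inside the rule, which touched a K562 region or lay 200 bp from one, were 4000 bp wide at the median and held 172 reads, and 76.2% of them held HCT116 pSIRT1. The 179 common sites just outside it, which shared 200 bp with a K562 region, were 2800 bp wide at the median and held 128 reads, and 69.3% held HCT116 pSIRT1. Sites on both sides of the limit held less of the mark than the HCT116-only sites as a whole.

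Among the HCT116 marks, pSIRT1 differed most between HCT116-only and both-lines sites. It overlapped 12309 of them (87.9%, Wilson 95% interval 87.3 to 88.4%), against 7001 both-lines sites (72.1%, 71.2 to 73.0%) and a background of 62.7% over all sites of the depleted list. Sites in 1 and in 2 K562 lists stood between, at 82.1 and 78.6%, so among common sites the share was lower with each further K562 list. Absence from K562 did not by itself go with a high share. The depleted-list sites absent from K562 but not common to all 4 HCT116 lists had 57.5%, at a median width of 2200 bp. The difference between HCT116-only and both-lines sites was 15.7 percentage points (Newcombe 95% interval 14.7 to 16.8). These intervals cover counting error only and treat sites as independent, which neighbours on a chromosome are not. The share was higher at HCT116-only sites on 23 of 23 chromosomes, with differences of 0.45 (X) to 22.2 points (chromosome 4). X held only 14 HCT116-only and 32 both-lines sites, so it shows no clear direction. Inside windows of 1 Mb that held both kinds of site (1700 windows with 12697 HCT116-only sites), the difference was 5.93 points, smaller than over the whole genome but in the same direction.

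HCT116-only sites also met more pSIRT1 in sum. Where present, the pSIRT1 regions that a site overlapped held together a median of 145 reads over 4199 bp. At both-lines sites they held 80 reads over 2399 bp. A single region of the list held a median of 51 reads. Wider sites can overlap more regions, so these sums are not sizes of single regions. Per kb the difference was small, 34.8 against 33.4 reads, so it was chiefly one of summed length. The pSIRT1 regions covered a median of 79.4% of the width of an HCT116-only site and 63.9% of a both-lines site.

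H4K16ac, the mark that SIRT1 can remove, overlapped nearly all common sites. It lay at 13082 HCT116-only sites (93.4%), against 8616 both-lines sites (88.8%) and 77.2% of the depleted list, a difference of 4.60 points (3.86 to 5.36) between the first and second. At the other depleted-list sites absent from K562 the share was 72.5%. The share was higher on 18 of 23 chromosomes. Within windows of 1 Mb the difference was -0.13 points, so it did not hold between neighbouring sites. Where present, the acetylated regions that a site overlapped summed to a median of 5205 bp at HCT116-only sites and 2086 bp at both-lines sites. A single region of the list was 813 bp wide at the median. The summed deposited score was 109.5 against 78 at the median. Divided by the summed length in kb, this score was lower at HCT116-only sites, 21.1 against 36.7, and it is not a read density.

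HCT116 pMCM2, the helicase mark, was about as frequent at both kinds of site. It overlapped 9945 HCT116-only sites (71.0%), against 6847 both-lines sites (70.6%) and 53.6% of the depleted list. The other depleted-list sites absent from K562 had a share of 45.2%. The difference of 0.44 points between HCT116-only and both-lines sites had an interval of -0.74 to 1.62. Shares were higher at HCT116-only sites on 14 chromosomes and lower on 9, from -19.1 points on chromosome 4 to 7.24 on chromosome 7. Within windows of 1 Mb the difference was -5.66 points, lower at HCT116-only sites. Where present, the pMCM2 regions that a site overlapped held together a median of 118 reads at HCT116-only sites and 126 at both-lines sites.

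The 3 HCT116 marks met at 9015 HCT116-only sites (64.4%), against 4982 both-lines sites (51.3%) and 37.9% of the depleted list. None of the 3 lay at 365 HCT116-only sites (2.61%) and at 383 both-lines sites (3.95%), against 12.9% of the depleted list. Most HCT116-only sites thus carried the full set of marks in the line in which they were start sites.

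**Figure D2:**
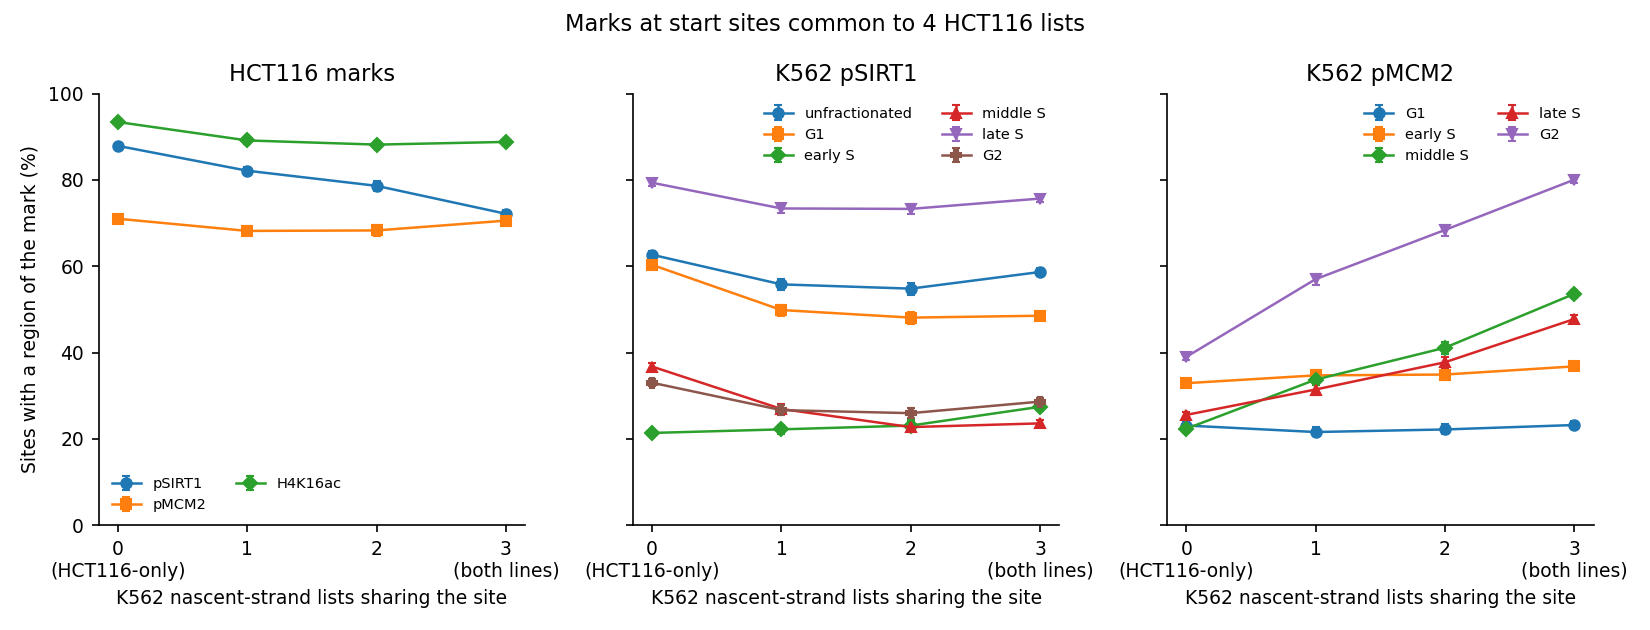
Share of common start sites (%) that overlapped a region of each mark, by the number of K562 nascent-strand lists that held the site, from 0 (HCT116-only) to 3 (both lines); bars are Wilson 95% intervals. HCT116 pSIRT1 was at 87.9% of HCT116-only and 72.1% of both-lines sites, and K562 pMCM2 of G2 at 39.0% and 80.0%, whereas HCT116 pMCM2 was at 71.0% and 70.6%.

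In K562 cells the helicase mark was the one that differed most. K562 pMCM2 of G2 overlapped 5463 HCT116-only sites (39.0%, 38.2 to 39.8%), against 7766 both-lines sites (80.0%, 79.2 to 80.8%) and 41.2% of the depleted list. Sites in 1 and 2 K562 lists stood between, at 57.0 and 68.4%. The share at HCT116-only sites was thus below that of all sites of the depleted list, although these sites were wider than the list. That list includes sites found in K562. The 48071 other depleted-list sites absent from K562, which were not common to all 4 HCT116 lists, had a share of 24.5%. Their median width was 2200 bp. The share at HCT116-only sites was lower than at both-lines sites on 23 of 23 chromosomes, with differences of -62.1 points (X) to -26.5 points (chromosome 21). X held only 14 HCT116-only and 32 both-lines sites.

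Over the genome the site classes differed little in G1 and most in middle S and G2. In G1, K562 pMCM2 overlapped 23.1% of HCT116-only and 23.2% of both-lines sites (background 14.1%), a difference of -0.11 points (-1.21 to 0.98). In early S it overlapped 32.9 and 36.8% (background 21.5%). In middle S it overlapped 22.4% of HCT116-only sites against 53.6% of both-lines sites (background 21.7%), a difference of -31.2 points. In late S the shares were 25.6 and 47.8% (background 21.9%). Within windows of 1 Mb the share was lower at HCT116-only sites in every phase, with differences of -6.05 points for G1 and -38.9 for G2, and of -10.9, -32.9 and -24.0 for the early, middle and late S fractions. The pMCM2 lists of G1 and early S held 24359 and 43553 regions and that of G2 82751, so the shares of different phases are not on a common scale, and the comparison is between site classes within a phase. Differences between phases were not tested.

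Counted over phases, 9543 HCT116-only sites (68.1%) had a K562 pMCM2 region in at least 1 of 5 phases, against 8689 both-lines sites (89.5%) and 59.6% of the depleted list. The difference was -21.4 points (-22.4 to -20.4) and -20.9 points within windows of 1 Mb, so it held between neighbouring sites. At the other depleted-list sites absent from K562 the share was 43.4%, below that of HCT116-only sites. All 5 phases were met at 439 HCT116-only sites (3.13%) and at 856 both-lines sites (8.82%), with a background of 2.69%. At 2590 HCT116-only sites (18.5%) pMCM2 was listed in HCT116 and in no K562 phase, against 464 both-lines sites (4.78%) and a background of 15.5%, so the HCT116-only share was near that of the whole list. Even so, 7355 HCT116-only sites (52.5%) had pMCM2 in both cell lines, against 6383 both-lines sites (65.8%) and a background of 38.1%. At 2188 HCT116-only sites (15.6%) it was in K562 alone, where no nascent strand was listed, against a background of 21.6%.

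Where K562 pMCM2 was present, the reads of the regions that a site overlapped were summed. The median sum was higher at HCT116-only sites in 4 of 5 phases. In G1 these regions together held a median of 27 reads, against 18 at both-lines sites, and in early S 25 against 17. In middle S they held 46 reads against 37, in late S 24 against 20, and in G2 63 against 67. Per kb of region the median was higher at HCT116-only sites in each phase. It was 11.25 against 8.89 in G1, 17.5 against 15 in early S and 19.1 against 15 in middle S. In late S it was 18.75 against 15 and in G2 34.3 against 27.8. The G2 regions of a site summed to 2000 bp at the median at HCT116-only sites and 2400 bp at both-lines sites. In middle and late S fewer HCT116-only sites thus had a region, and the regions present held more reads in sum.

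K562 pSIRT1 differed between HCT116-only and both-lines sites in directions that varied with the cycle fraction. The shares of sites with a region in at least 1 of its 6 lists were equal. In unfractionated cells it overlapped 8777 HCT116-only sites (62.7%), against 5693 both-lines sites (58.7%) and 41.7% of the depleted list. The difference was 3.99 points (2.73 to 5.26), and the share was higher at HCT116-only sites on 16 of 23 chromosomes. It was -1.49 points within windows of 1 Mb and 0.26 among sites of equal width, so its direction depended on what was held equal. A K562 pSIRT1 region of any of the 6 lists was present at 86.9% of both kinds of site, against a background of 70.2%, with a difference of 0.040 points (-0.83 to 0.92). HCT116 and K562 thus both had pSIRT1 at 11358 HCT116-only sites (81.1%), against 6500 both-lines sites (67.0%) and a background of 53.8%. HCT116 alone had it at 951 HCT116-only sites (6.79%), against 501 both-lines sites (5.16%), and both shares were below the background of 8.87%. The number of K562 pSIRT1 lists met was not the same in both classes. Exactly 1 list was met at 14.1% of HCT116-only and 19.8% of both-lines sites, and exactly 5 at 13.0 and 9.02%. All 6 were met at 12.5 and 11.6% (background 6.19%).

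The cycle fractions differed in direction. In early S, K562 pSIRT1 overlapped 21.4% of HCT116-only and 27.5% of both-lines sites (background 14.5%), a difference of -6.06 points and of -16.3 within windows of 1 Mb. In middle S it overlapped 36.8 and 23.6% (background 18.3%), a difference of 13.2 points and of 1.94 within windows. In G1 the shares were 60.3 and 48.5% (background 36.1%), a difference of 11.8 points and of -1.08 within windows. Early S was thus the fraction in which pSIRT1 was lower at HCT116-only sites in both counts, and the excess in G1 and middle S was small or absent between neighbouring sites. In late S the shares were 79.3 and 75.7% (background 58.3%) and in G2 33.0 and 28.6% (background 19.6%), and both differences were negative within windows, at -1.77 and -6.30 points. The early S list had narrow regions, 400 bp at the median against 2800 bp for middle S, and whether its width or its depth had a part in these differences was not tested.

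The differences in HCT116 pSIRT1 and K562 pMCM2 were present in narrow and in wide sites. Among sites of at most 2000 bp, HCT116 pSIRT1 lay at 75.5% of HCT116-only and 63.0% of both-lines sites, and among sites over 8000 bp at 98.6 and 90.6%. The corresponding shares of K562 pMCM2 in G2 were 34.2 and 70.9% in narrow sites and 48.1 and 92.9% in wide ones. Both differences had the same direction in each of 4 width classes. HCT116 pMCM2 differed by -4.69, -1.09, -3.88 and 1.02 points from the narrowest class to the widest, and unfractionated K562 pSIRT1 by -2.87, 0.44, -0.62 and 6.09, with no fixed direction.

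**Figure D3:**
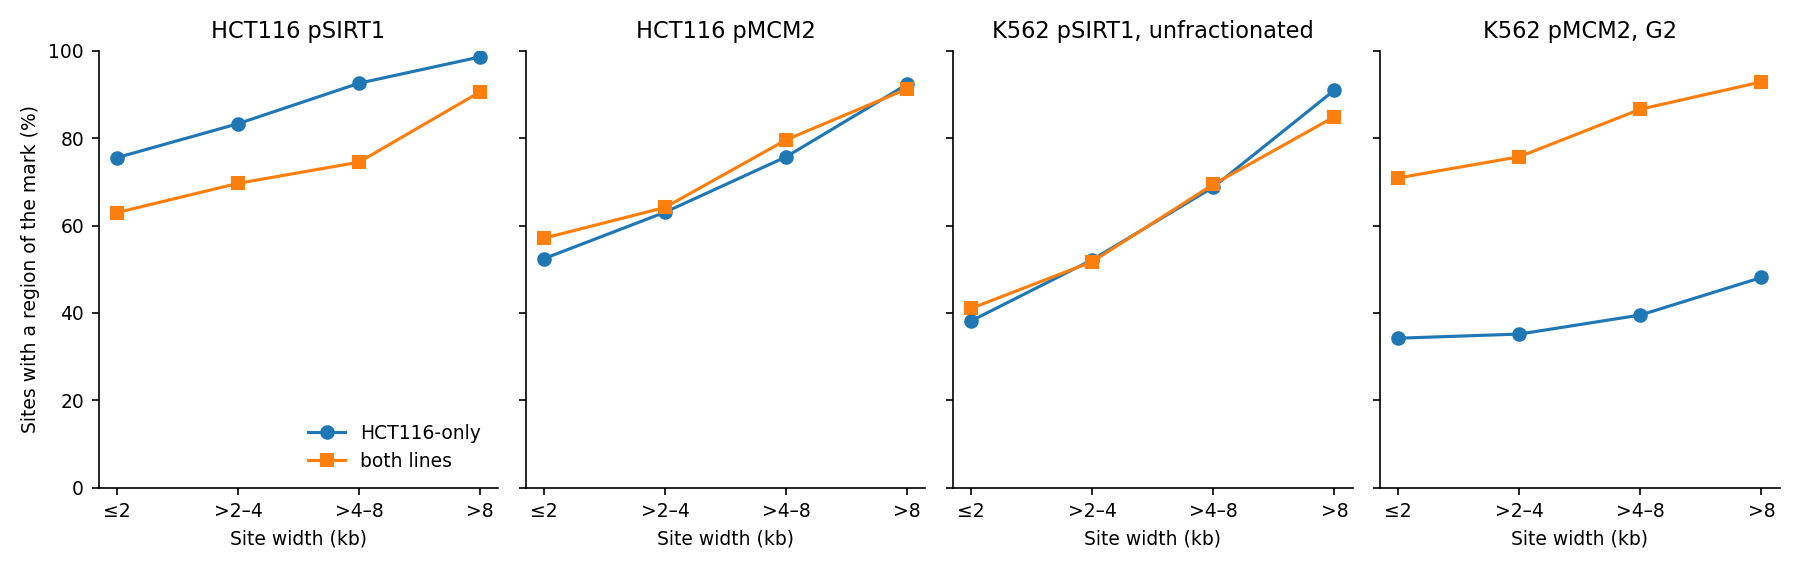
Share of sites (%) with a region of 4 marks, by width of the site in kb, for HCT116-only and both-lines sites. In the class over 8 kb, HCT116 pSIRT1 was at 98.6% of HCT116-only and 90.6% of both-lines sites, and K562 pMCM2 of G2 at 48.1 and 92.9%; the lines of HCT116 pMCM2 and of unfractionated K562 pSIRT1 cross.

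Distance from K562 start sites went with the K562 helicase mark. K562 pMCM2 of G2 overlapped 44.5% of the 1409 HCT116-only sites within 1 kb of a K562 start site, 41.0% of those 1 to 10 kb away, 36.6% of those 10 to 100 kb away and 22.3% of the 363 sites beyond 100 kb. Unfractionated K562 pSIRT1 overlapped 58.1, 62.7, 63.6 and 64.5% of the same classes. K562 pMCM2 of G2 thus fell with distance, whereas unfractionated K562 pSIRT1 was lowest within 1 kb and differed little among the farther classes. The other K562 pSIRT1 lists were not counted by distance. The median width was 4000 bp in the nearest class and 4600 bp in the farthest. Unfractionated K562 pSIRT1 was also more frequent at wide sites. It lay at 38.2% of HCT116-only sites of at most 2000 bp and at 91.0% of those over 8000 bp. Whether width had a part in its rise with distance was not tested. HCT116 pSIRT1 was lowest at both ends, at 82.9% within 1 kb and 82.9% beyond 100 kb, and 88.5 and 88.7% between.

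HCT116-only sites were unevenly spread over chromosomes. Chromosome 22 had the highest share, 541 of 902 common sites (60.0%), followed by chromosome 15 (54.8%), 19 (54.5%) and 17 (52.6%). X had the lowest, 14 of 57 (24.6%), followed by chromosome 5 with 575 of 2168 (26.5%) and chromosome 6 with 457 of 1553 (29.4%). Chromosomes 15, 17, 19 and 22 together held 2914 HCT116-only sites, 20.8% of these sites against 15.3% of the common sites. They had 0.91 K562 nascent-strand regions for each depleted-list region, against 2.03 over all 23 chromosomes, and across chromosomes Spearman's rho of this ratio with the HCT116-only share was -0.93. Since absence from K562 chose the sites, this relation is fixed in part by the rule and is given without a test.

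**Figure D4:**
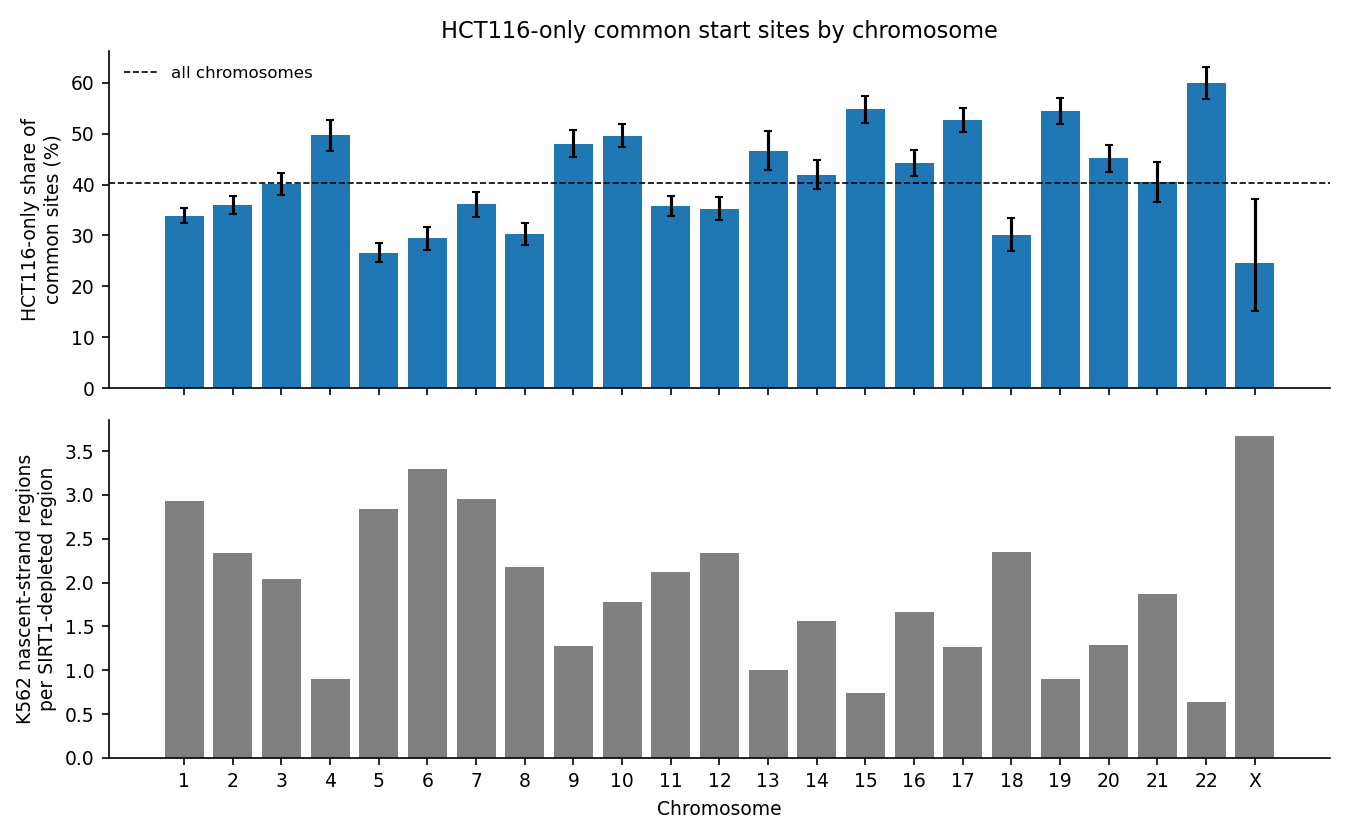
Top, HCT116-only sites as a share (%) of the common sites of each chromosome, with Wilson 95% intervals and the share over all chromosomes (dashed, 40.3%). Bottom, K562 nascent-strand regions of the 3 lists per region of the SIRT1-depleted list; chromosomes such as 22 (60.0%) and 15 (54.8%) with tall bars above have short bars below.

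At a finer scale the sites lay in blocks. The next common site after an HCT116-only site was HCT116-only in 7702 of 14001 cases (55.0%), against 24.7% after a both-lines site and 40.3% of all common sites. There were 6306 unbroken runs, of which 3336 held 1 site, and 96 runs of at least 10 sites held 1302 sites (9.29%). The longest run had 40 sites on chromosome 22 (hg19 18808001 to 21429200), the next 38 on chromosome 19 (875401 to 2292000) and the third 27 on chromosome 22 (22658601 to 23651800). In segments of 10 Mb with at least 50 common sites (211 segments), the HCT116-only share ranged from 5.88 to 81.2%, with a median of 38.3%. The highest was the last segment of chromosome 10 from 130000001 (56 of 69 sites), then the segment of chromosome 9 from 130000001 (186 of 243, 76.5%). The lowest was chromosome 18 from 20000001 (3 of 51). Copy number was not analysed here for either cell line, and the controls of sheared DNA were left out. Its part in these segments, and in the chromosome 10 windows and sites named below, was not tested.

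The windows of 1 Mb with most HCT116-only sites were on 4 chromosomes. Chromosome 10 from 130000001 to 131000000 held 45 of 49 common sites, and that from 125000001 held 41 of 63. Chromosome 22 from 37000001 held 45 of 67, chromosome 4 from 7000001 held 40 of 57 and chromosome 3 from 13000001 held 39 of 56. In the first of these windows the 3 K562 nascent-strand lists had 3, 4 and 4 regions in early, middle and late S, against 43 to 89 in the HCT116 lists, and K562 pSIRT1 of unfractionated cells had 30 regions against 138 for HCT116 pSIRT1. In the chromosome 22 window the K562 lists had 22, 31 and 21 start regions, and unfractionated K562 pSIRT1 had 112 regions against 147. A dense window of HCT116-only sites could thus have many or few regions of pSIRT1 in K562.

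Several stretches without any K562 start site had many K562 pSIRT1 regions. On chromosome 22, a stretch of 1195 kb (22503601 to 23698800) held 27 HCT116-only sites and no K562 nascent-strand region, but 108 K562 pSIRT1 regions in middle S, 138 in G2 and 79 in unfractionated cells, against 123 HCT116 pSIRT1 regions. A second stretch of chromosome 22 (18935001 to 20327600) held 21 sites, with 157 regions of unfractionated K562 pSIRT1 against 167 of HCT116 pSIRT1. K562 pMCM2 of G2 had 26 regions in the first and 9 in the second, against 120 and 136 regions of HCT116 pMCM2. The end of chromosome 19 (863001 to 1549000) held 21 sites, with 6 K562 pMCM2 regions of G2 and 95 regions of unfractionated K562 pSIRT1 against 113 of HCT116 pSIRT1. A stretch of chromosome 10 (130164001 to 130381800) held 15 sites, with 14 regions of unfractionated K562 pSIRT1 against 38 of HCT116 pSIRT1. K562 cells are known for an amplified fusion of BCR on chromosome 22 with ABL1 on chromosome 9, and copy number was not measured here, so its part in these stretches was not tested.

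The sites farthest from any K562 start site lay on the short arm of chromosome 9. Of 20 sites more than 500 kb from a K562 start site, 12 were on chromosome 9, 7 on chromosome 22 and 1 on chromosome 4. The 12 sites spread over 9.64 Mb (21487801 to 31125800), in which 22 of 25 common sites were HCT116-only. The K562 nascent-strand lists had 2, 2 and 1 regions there in early, middle and late S, against 106 to 155 in the HCT116 lists. K562 pSIRT1 had 11 regions in unfractionated cells, 47 in G1 and 48 in G2, and 56, 2 and 26 in the early, middle and late S fractions, against 88 of HCT116 pSIRT1. Of the 12 sites, HCT116 pSIRT1 lay at 7, unfractionated K562 pSIRT1 at 0, a K562 pSIRT1 region of any list at 3 and K562 pMCM2 of any phase at 4. In the same order, the shares were 62.7, 41.7, 70.2 and 59.6% over the depleted list. Over all HCT116-only sites they were 87.9, 62.7, 86.9 and 68.1%. At the 7 sites of chromosome 22, HCT116 pSIRT1 and unfractionated K562 pSIRT1 lay at 7 each. These are few sites, and the counts are a description. K562 is known to lack a part of the short arm of chromosome 9 around CDKN2A. Copy number was not measured here, and its part was not tested.

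The farthest site of all, chromosome 9 from 22660201 to 22664000, was 1970 kb from a K562 start site. It held 191 reads in the depleted list, 299 in the T530A rescue, 229 after aphidicolin and 254 in the wild-type rescue, and it overlapped all 3 HCT116 marks (34 reads of pSIRT1 and 158 of pMCM2). In K562 a late S pSIRT1 region of 29 reads and a G2 pMCM2 region of 22 reads reached it. The site from 30078001 to 30080000, 1736 kb away, held 85, 82, 87 and 118 reads in the same order of lists, with all 3 HCT116 marks and none in K562. The other 3 of the 5 farthest sites began at 23823001, 21965201 and 21929201, with 78 to 297 reads in the 4 lists. The lower quartiles over all HCT116-only sites were 117, 127, 120 and 155 reads in the same order, so the site from 30078001 was below the quartile in all 4 lists and the site from 21929201 in 3 of them (113, 78 and 95 reads, with 191 after aphidicolin).

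By mean rank of reads over the 4 lists, the first 5 HCT116-only sites were on chromosomes 8, 1 and 4. The first, chromosome 8 from 86726401 to 86841400, held 31937 reads in the depleted list, 30178 in the T530A rescue, 30722 after aphidicolin and 30095 in the wild-type rescue, and was the widest of the HCT116-only sites. It also held 9655 reads of HCT116 pMCM2 and 93 of HCT116 pSIRT1, no region of unfractionated K562 pSIRT1, 8220 reads of late S K562 pSIRT1 and 5379 of G2 K562 pMCM2. The second, chromosome 1 from 143274001 to 143292200, held 11727, 9078, 9111 and 8390 reads and overlapped all 14 mark lists. The others were on chromosome 8 from 86554001 to 86576400 (8047 to 8504 reads), on chromosome 4 from 9213401 to 9274600 (5097 to 6099 reads) and on chromosome 4 from 49511401 to 49524200 (4949 to 7706 reads). Each of these 5 also held regions of K562 pSIRT1 in at least 5 lists, next to a K562 start site 2.6 to 58.4 kb away. Copy number and mappability were not measured here, and their part in these read numbers was not tested. Leaving out the 1% of common sites with most reads left 13856 HCT116-only sites.

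Some HCT116-only sites lay at each end of the range of K562 marks. All 3 HCT116 marks with no K562 pSIRT1 or pMCM2 of any list met at 182 HCT116-only sites (1.30%), against 0.36% of both-lines sites. The background was 1.21%, so the HCT116-only share was near that of the whole list. Of the 182 sites, 32 were on chromosome 10, all past 100 Mb, 26 on chromosome 4 and 20 on chromosome 15. Of the 949 HCT116-only sites of chromosome 10, 538 lay past 100 Mb. As shares of each chromosome's HCT116-only sites, chromosome 4 had 5.01%, chromosome 13 had 4.33% (13 sites), chromosome 10 had 3.37% and chromosome 15 had 2.83%. Shares over the whole depleted list were not computed by chromosome, so this spread is a description. The strongest of the 182 sites was chromosome 10 from 122240001 to 122250800. It held 478, 744, 661 and 779 reads in the depleted, T530A rescue, aphidicolin and wild-type rescue lists. HCT116 pSIRT1 held 218 reads there and HCT116 pMCM2 186. The next began at 126896601 and 118456201 on the same chromosome and held 364 to 1252 and 366 to 1440 reads, lowest in both cases in the depleted list. At the other end, 1618 HCT116-only sites (11.6%), against 9.48% of both-lines sites and a background of 5.26%, had all 3 HCT116 marks and all 6 K562 pSIRT1 lists, led by the sites on chromosomes 1 and 4 named above and by chromosome 1 from 16962201 to 16986800, a site of 2725 reads in the depleted list, 10842 in the T530A rescue, 9993 after aphidicolin and 7647 in the wild-type rescue.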

How the data were processed

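Region lists of 21 of the 23 samples were used, and 2 controls of sheared DNA were left out (not analysed here). Coordinates are those of hg19, and MACS and SICER are named, per the submitters' processing notes. No column of the lists is named, so units were inferred from layout and values. In 18 lists the value is a whole number per region as the authors deposited it, taken as a read count and not scaled between libraries. For K562 pSIRT1 in middle S and in G2 the authors deposited a decimal score of unstated scaling. The H4K16ac list is laid out as peak caller output. Its deposited score was used to rank regions, and its deposited fold enrichment and −log10 p and q columns were not used. Aligner, thresholds and versions: not given in the sources used here.

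Regions on chromosomes 1 to 22 and X were kept, and no list held overlapping regions. An overlap was at least 1 bp. A site's value or region length in another list is the sum over the regions it overlaps, each taken whole. Shares have Wilson 95% intervals, and their differences Newcombe intervals. Values within windows and widths are the differences in each stratum averaged with the number of HCT116-only sites as weights. With 1 library per group no test was run. Precision was limited by read depth, which is known only inside the listed regions.

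The sites named were, by rule, the 5 with the lowest mean rank by reads over the 4 lists, the 5 farthest from a K562 start site, the 5 fullest windows of 1 Mb, and the 3 strongest with all HCT116 marks and either no K562 mark or all 6 K562 pSIRT1 lists. Runs, segments, stretches and distance classes were chosen after the data were seen. The members, lists and rules were all chosen with earlier results of these data known. An annotation of hg19 was not used here, so no genes or sequences are given, and the lists of colon and erythroid loci planned were not used. Alternatives changed the overlap, the distance, the score limit, the list that gives the sites, the chromosomes and windows kept, the part and width of sites, and the length of mark lists; stratified values and leaving out the sites with most reads were added after seeing the data. The overlap functions were tested on simulated data, with 0 disagreements with direct counting in 20 runs. Python 3.11.15, numpy 2.4.6, pandas 2.3.3, scipy 1.17.1 and matplotlib 3.10.9 were used.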

Additional observations from a re-analysis of the deposited data

How the results depend on the processing

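The values below are the number of HCT116-only sites and the differences in share between HCT116-only and both-lines sites, in percentage points. The number was 9129 with the higher-scoring 50% of each list and 12420 to 13982 under the other 6 alternatives. The difference in HCT116 pSIRT1 was positive in 13 of 13 alternatives and that in K562 pMCM2 of any phase negative in 13 of 13, whereas HCT116 pMCM2 kept its sign in 4 of 13 and H4K16ac and unfractionated K562 pSIRT1 in 12 of 13 each. In the order HCT116 pSIRT1, HCT116 pMCM2, H4K16ac, unfractionated K562 pSIRT1 and K562 pMCM2 of any phase, the differences were 21.1, -6.13, 7.02, 0.42 and -24.7 with the higher-scoring 50%. They were 19.4, -5.18, 16.4, 2.42 and -28.5 for the 200 bp at the middle of each site. They were 27.6, -3.15, 18.5, 10.6 and -16.2 with every mark list cut to the 24359 regions of the shortest. They were 13.5, -2.47, 3.55, 0.26 and -22.8 among equal widths. For sites of 1600 to 3200 bp, HCT116 pSIRT1 differed by 13.5, HCT116 pMCM2 by -1.98, unfractionated K562 pSIRT1 by 0.31 and K562 pMCM2 by -27.1. With wild-type rescue regions as sites, HCT116 pSIRT1 differed by 14.7, HCT116 pMCM2 by -1.36 and H4K16ac by 3.67. Within chromosomes these 3 differed by 13.7, -0.94 and 3.25. Within windows of 1 Mb, HCT116 pSIRT1 differed by 5.93, HCT116 pMCM2 by -5.66, and H4K16ac and unfractionated K562 pSIRT1 changed sign, to -0.13 and -1.49. Without chromosomes 5 and 21 H4K16ac differed by 3.81. The cause of these changes was not tested. No paired analysis was possible because each group had 1 library.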
